A study of Mus musculus with 52 samples.

Results

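The RANKL and CSF1 axis was followed through mouse bone marrow as 5 genes, chosen by name: Tnfsf11 (RANKL), Tnfrsf11b (osteoprotegerin), Tnfrsf11a (RANK), Csf1 (M-CSF) and Csf1r (its receptor). All 5 were found among the 13566 genes counted in haematopoietic stem cells (HSC) and among the 15168 genes counted in marrow stroma. Tnfsf11 was the member called. In stroma it was 6.42-fold to 11.9-fold higher after dmPGE2, rivenprost, rivenprost with sulprostone, or misoprostol than after vehicle, in 5 of 7 comparisons with a vehicle group. No test called Tnfrsf11b, Tnfrsf11a, Csf1 or Csf1r in any of those 7 comparisons, and no member was called in HSC. Of all genes, 0.105% to 3.76% were called in those 7 comparisons and 0.0147% to 0.545% in the HSC comparisons. At such shares a lack of calls among so few genes does not show a lack of response.

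RANKL is a membrane-bound or shed cytokine of the TNF family, made in marrow by osteoblast-lineage and other mesenchymal cells. It binds RANK on osteoclast precursors, which signals through TRAF6 to NF-kB and NFATc1, and osteoprotegerin is a soluble decoy receptor that captures it. CSF1 acts through the receptor tyrosine kinase CSF1R to keep monocytes, macrophages and osteoclast precursors alive, and osteoclasts form where both cytokines are present. In osteoblast cultures, prostaglandin E2 is a known inducer of RANKL, mainly through receptors that raise cAMP (EP2 and EP4), whereas EP3 couples mostly to the inhibitory G protein.

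RNA was sequenced from 52 mice, 4 per group (2 male, 2 female), and each library is 1 mouse. Mice were given an agonist or vehicle 30 min before total-body irradiation of 853 cGy, and marrow was taken 1 h after it. The irradiated groups of both fractions were Miso (misoprostol), EP3+4 (sulprostone with rivenprost), EP4 (rivenprost, an EP4 agonist), EP3 (sulprostone, an EP3 agonist) and Veh (vehicle). Stroma also had PGE with irradiation, and the sham-irradiated groups NI-PGE and NI-Veh. PGE is read as dmPGE2, a stabilised prostaglandin E2, from the series title, and the design text names only vehicle for sham-irradiated mice, so NI-PGE rests on the labels. Strain, age and agonist doses are not given in the sources used here, and compounds are therefore compared at unknown relative doses. The HSC were sorted by flow cytometry on SLAM and LKS surface markers. The stroma was enriched with magnets for cells lacking CD45 and Ter119, an enrichment meant to keep mesenchymal and endothelial cells together and to leave out blood cells.

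Libraries held 38.0 to 73.7 M counts in stroma and 27.4 to 49.2 M in HSC. Values are CPM, raw counts scaled to 1 M counts per library, and a gene was called at a Benjamini-Hochberg adjusted p under 0.05 over all genes of its fraction in edgeR's quasi-likelihood test. Stroma had high summed levels of osteoblast-lineage markers (2440 to 52840 CPM) and of CXCL12-abundant reticular (CAR) cell markers (3857 to 21820 CPM). The osteoblast-lineage sum was led by the collagen genes Col1a2 and Col1a1, with medians of 2920 and 2600 CPM. Sp7 and Bglap of that list had medians of 6.18 and 15.3 CPM. Cxcl12, at a median of 8100 CPM, led the CAR sum, so both sums mainly follow these few genes. Stroma also held RNA of blood cells despite the enrichment, with granulocyte marker sums of 741.4 to 11310 CPM and monocyte and macrophage marker sums of 477.5 to 2709 CPM. The granulocyte medians were 3172 CPM with Miso, 3852 with EP3+4, 4355 with EP4, 4128 with EP3 and 4968 with PGE against 7691 CPM with Veh, and 4083 with NI-PGE against 5536 CPM with NI-Veh. The part of these cells in the results was not tested. Of 9 osteoclast markers 6 were in the stroma table, Calcr, Ocstamp and Oscar not among them, and their sum was 224.9 to 1400 CPM. The highest of them were Itgb3, an integrin gene that megakaryocytes also express, at 67.6 to 1290 CPM, and Mmp9, which neutrophils also express, at 30.5 to 436 CPM. Acp5, the tartrate-resistant acid phosphatase, had a median of 42.8 CPM and Ctsk, the protease cathepsin K, one of 31.5 CPM. Atp6v0d2, a proton pump subunit, was at 0.909 to 9.12 CPM and Dcstamp, a gene of osteoclast fusion, at 0 to 0.526 CPM. In HSC all 8 stem cell markers were in the table, and their sum was 1408 to 2181 CPM in 19 of 20 libraries. The exception was EP3 replicate 1, with 893 CPM of stem cell markers and 10270 CPM of granulocyte markers, against at most 484 CPM of granulocyte markers elsewhere. In such bulk samples, fewer cells of a type and less RNA per cell cannot be told apart.

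In the mouse build mm10, the members lie on separate chromosomes. Tnfsf11 occupies chr14:78277446-78308043 on the minus strand and Tnfrsf11b chr15:54250619-54278484 on the minus strand. Tnfrsf11a lies at chr1:105780723-105847981 on the plus strand and Csf1 at chr3:107741048-107760469 on the minus strand. Promoters of 3 of the 5 members, matched by symbol, were read from RefSeq tables of GRCm38.p6, the assembly of which mm10 is the UCSC version. That of Csf1r was left out and is not reported here. The promoters of the pair of ligands are shown, because the gene of one ligand was called with the agonists and that of the other was not. Each runs 5′ to 3′ on the gene's own strand, from 250 bases before the annotated start to 50 bases after it, and capitals mark a match to the TATA-box letters TATAA on either strand. The Tnfsf11 window is chr14:78307994-78308293 and the Csf1 window is chr3:107760420-107760719, both on the minus strand.
Tnfsf11: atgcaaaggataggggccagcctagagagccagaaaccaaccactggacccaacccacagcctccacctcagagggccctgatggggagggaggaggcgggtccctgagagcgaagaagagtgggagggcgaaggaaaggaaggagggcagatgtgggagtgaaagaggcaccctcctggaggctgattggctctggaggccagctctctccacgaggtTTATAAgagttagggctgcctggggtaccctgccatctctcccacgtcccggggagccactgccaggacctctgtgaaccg
Csf1: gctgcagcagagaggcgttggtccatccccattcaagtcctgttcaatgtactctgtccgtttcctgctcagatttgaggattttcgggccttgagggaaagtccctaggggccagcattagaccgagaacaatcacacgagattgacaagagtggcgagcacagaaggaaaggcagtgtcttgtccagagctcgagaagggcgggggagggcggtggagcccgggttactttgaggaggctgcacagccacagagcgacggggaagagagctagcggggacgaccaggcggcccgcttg

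The Tnfsf11 window held 2 overlapping matches to TATAA, 1 on each strand, beginning at -31 and -30 from the start, and the Csf1 window held none. Among 32851 promoters of the same length, 24.9% held TATAA on either strand. Neither ligand window held the full cAMP response element TGACGTCA (1.79% of promoters), its core TGACG (20.8%) or the AP-1 letters TGANTCA (7.81%). The core is part of the full element, so those matches overlap by construction. The Tnfrsf11a window at chr1:105780473-105780772 held 1 match to TGACG, on the strand opposite to the gene, at -134. A match here is only a description of the letters, and response elements outside the window were not searched.

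The axis genes differed widely in level. Per kilobase of counted exon, the median over 32 stroma libraries was 92.3 CPM for Tnfsf11, 49.3 CPM for Csf1 and 11.2 CPM for Csf1r. The binding partners of RANKL were far lower on the same scale, at 0.363 CPM per kb for Tnfrsf11b and 0.203 CPM per kb for Tnfrsf11a. These medians pool agonist and vehicle libraries, and Tnfsf11 was higher after most agonist treatments. In vehicle stroma Tnfsf11 stood below Csf1, with group means of 18.04 (Veh) and 18.93 (NI-Veh) CPM per kb. Those of Csf1 were 49.8 and 61.9, and those of Csf1r 18.08 and 14.31 CPM per kb. Stroma therefore held ligand RNA of both cytokines and little RNA of RANK or of the decoy. The low pair rests on few reads, 11 to 222 counts per library for Tnfrsf11b and as few as 14 for Tnfrsf11a.

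**Figure D1:**
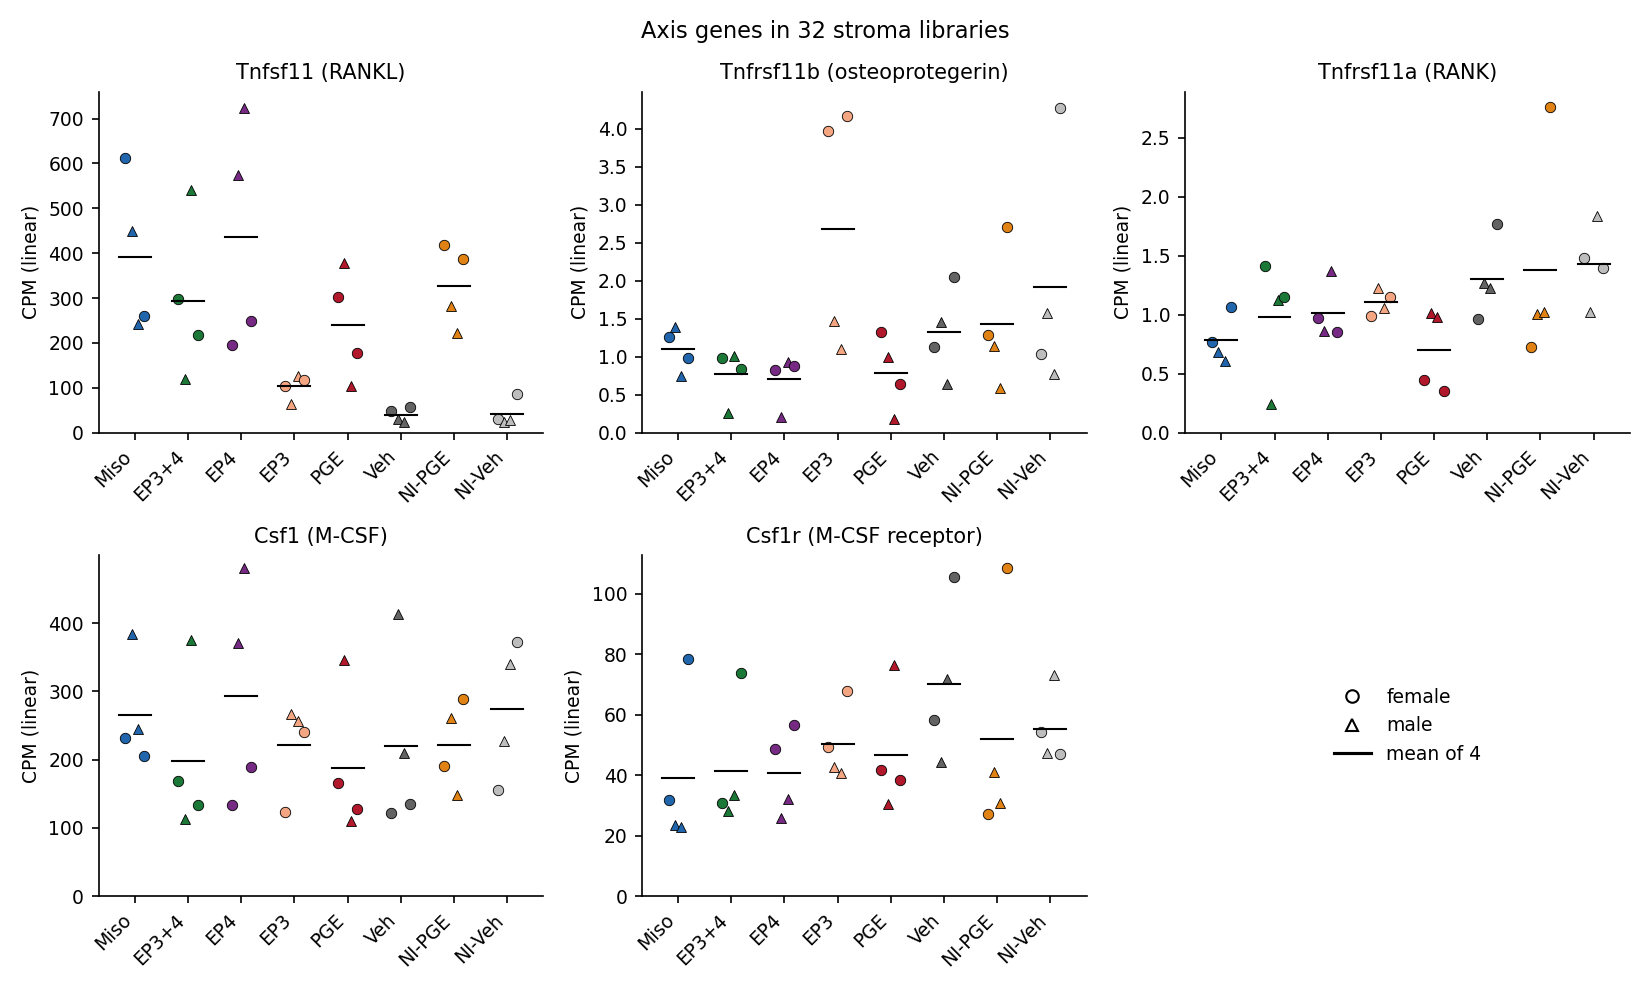
Levels of the 5 axis genes in 32 stroma libraries, in CPM, by group on the horizontal axis. Each point is 1 mouse (circles female, triangles male) and each bar is the mean of 4. Tnfsf11 libraries of Miso, EP3+4, EP4, PGE and NI-PGE, at 105 CPM or more, lie above every library of Veh and NI-Veh, at 85.6 CPM or less, while the other 4 genes overlap between the agonist and vehicle groups.

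Tnfsf11 encodes RANKL, the ligand. In non-irradiated stroma it had 419, 283, 222 and 388 CPM after dmPGE2, against 31.2, 23.3, 29.1 and 85.6 CPM after vehicle. The groups did not overlap, and the log2 fold change was 3.04 (SE 0.525, adjusted p = 0.00108 in edgeR). It was the 1 member of 5 called there, where 3.76% of all genes were called. NI-Veh replicate 4, the highest vehicle library, also had the highest sum of osteoblast-lineage markers, 52840 CPM against 9118 to 15570 CPM in the other NI-Veh libraries. NI-PGE replicate 4 stood apart in the same way, at 33090 CPM against 4278 to 9348 CPM in the other NI-PGE libraries, and the titles give this pair of mice numbers far from those of all the other stroma mice. Whether those sums play a part in the Tnfsf11 levels was not tested. Leaving out any 1 library, these included, gave log2 fold changes of 2.85 to 3.60, all called.

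After irradiation the dmPGE2 mice had 302, 379, 105 and 178 CPM of Tnfsf11, against 48.2, 31.5, 23.4 and 58.1 CPM in irradiated vehicle mice. Again no dmPGE2 library fell among the vehicle libraries, and the log2 difference was 2.68 (adjusted p = 0.00458 in edgeR, SE 0.518). This was 1 member of 5 in a comparison that called 1.98% of genes. Irradiation alone left no detectable difference, with Veh over NI-Veh at -0.03 on the log2 scale (95% interval -1.03 to 0.97), and the libraries of these groups were interleaved. Of the members, 0 were called in that comparison by edgeR, which called 0.771% of all genes. The irradiated and sham-irradiated dmPGE2 groups differed by -0.39 in log2 (interval -1.39 to 0.61, 0.0461% of genes called), and their ranges overlapped. The interaction, the dmPGE2 change with irradiation less that without, was -0.36 (interval -1.77 to 1.05), and 0.0264% of genes passed that test.

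The other agonist treatments were read against irradiated vehicle, and pairs of compounds are set against each other further on. Rivenprost stroma had 194, 575, 724 and 248 CPM, and the log2 fold change against irradiated vehicle was 3.57 (SE 0.544, adjusted p = 0.000652 in edgeR). Misoprostol stroma had 612, 449, 242 and 261 CPM, 3.32 above vehicle in log2 (SE 0.531, adjusted p = 0.00189 in edgeR). Stroma given both sulprostone and rivenprost had 297, 120, 541.5 and 218 CPM, a difference of 2.95 (SE 0.525, adjusted p = 0.00184 in edgeR). Every library of these 3 groups was above the highest vehicle library, at 58.1 CPM, though the spread within each group was wide, with a SD of 256 CPM around the rivenprost mean of 435 CPM. Tnfsf11 was the 1 member called in each, where 1.13% of genes were called with rivenprost, 3.09% with both agonists and 0.916% with misoprostol. Fitted on the rivenprost and vehicle groups alone, the rivenprost difference was 3.36 and missed the threshold (adjusted p = 0.092 in edgeR).

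Sulprostone, the EP3 agonist, stood lower. Its libraries had 104, 64.4, 125.3 and 117.6 CPM of Tnfsf11, all above the irradiated vehicle libraries but below every rivenprost and misoprostol library. They overlapped the libraries of irradiated dmPGE2, through replicate 3 at 105 CPM, and of both agonists, through replicate 2 at 120 CPM. The log2 fold change against vehicle was 1.39 (SE 0.496, 95% interval 0.37 to 2.41, unadjusted p = 0.00928), and it did not pass after adjustment over all genes (adjusted p = 0.875 in edgeR). Of the members, 0 were called there by edgeR, 1 had an unadjusted p under 0.05 and DESeq2 called 0, beside 0.105% of all genes called by edgeR. Over all genes 596 had an unadjusted p under 0.05 in edgeR and DESeq2 called 38. The interval excludes 0 before that adjustment and still reaches 2.41, so the size of a sulprostone effect on Tnfsf11 is poorly fixed by 4 mice per group.

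**Figure D2:**
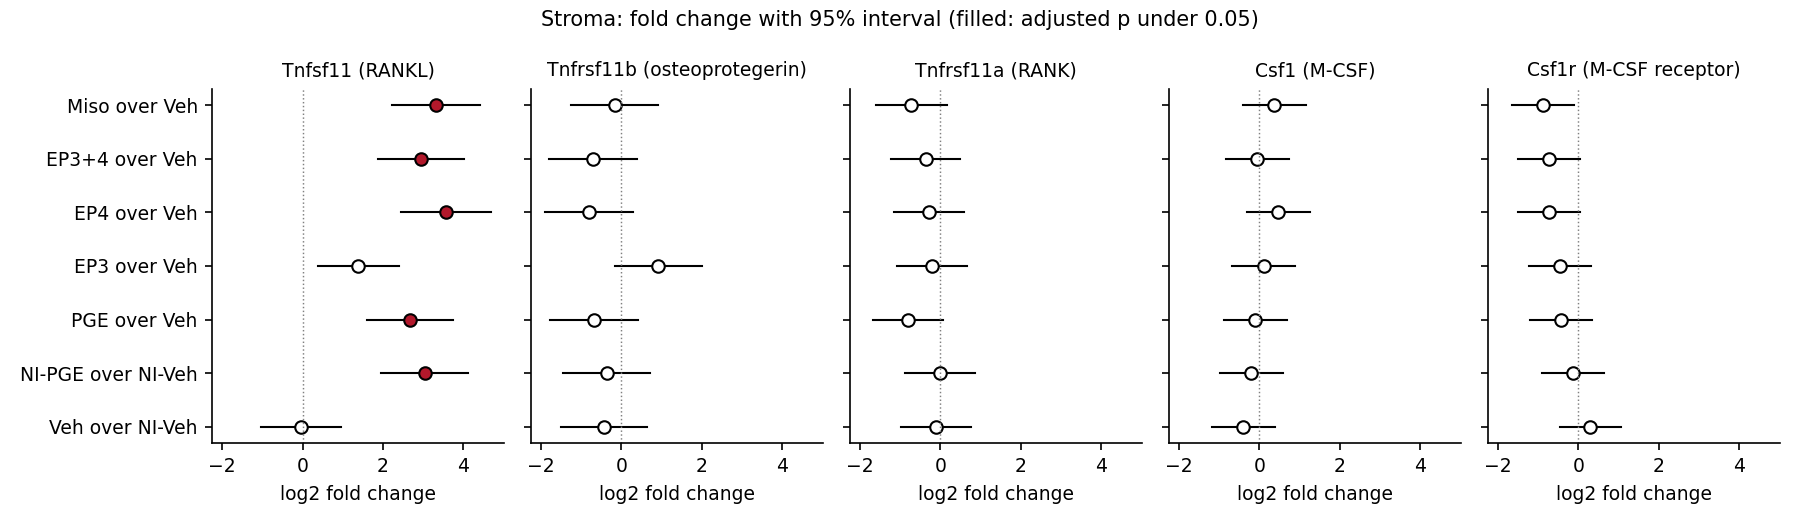
Log2 fold changes of the axis genes in stroma for the 7 comparisons with a vehicle group, with 95% intervals from edgeR. Each point is 1 comparison, filled where the adjusted p is under 0.05. Tnfsf11 lies between 2.68 and 3.57 in the 5 called comparisons and at 1.39 with sulprostone and -0.03 with irradiation alone, while the other members lie between -0.89 and 0.92.

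The compounds were also set against each other in 10 pairs for each member. No pair was called for any member in edgeR, 0 of 50 tests, while 7 had an unadjusted p under 0.05 and DESeq2 called 5. Tnfsf11 was lower with sulprostone than with every other agonist treatment: EP3 over PGE was -1.29 in log2 (adjusted p = 0.171 in edgeR), in a comparison where 1.28% of genes were called. Rivenprost over sulprostone was 2.18 (interval 1.13 to 3.22, adjusted p = 0.103 in edgeR, 0.033% of genes called). Both agonists over sulprostone gave 1.56 (adjusted p = 0.109 in edgeR, 1.67% called), and misoprostol over sulprostone gave 1.93 (adjusted p = 0.156 in edgeR, 0.0132% called). DESeq2 called those last 3 differences, at adjusted p of 0.00281, 0.0324 and 0.0182. The direction was the same in both tools and the call was not.

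Among the other agonist treatments Tnfsf11 differed less. Rivenprost over dmPGE2 was 0.89 (interval -0.12 to 1.90), misoprostol over dmPGE2 was 0.64 and the combination over dmPGE2 was 0.27. The combination over rivenprost was -0.62, misoprostol over rivenprost was -0.24 and misoprostol over the combination was 0.37. All 6 comparisons called 0% of all genes in edgeR, so a miss by Tnfsf11 says little, and the intervals do not show that the compounds act alike. Over all genes DESeq2 called 19 for rivenprost and 4 for misoprostol over dmPGE2, 1 for misoprostol over rivenprost, 1 for misoprostol over the combination and 0 for the remaining pairs, and 96 to 1468 genes per pair had an unadjusted p under 0.05 in edgeR. The change with both agonists was 2.01 log2 units smaller than the sum of the changes with each alone (additivity contrast -2.01, interval -3.44 to -0.58, adjusted p = 0.941 in edgeR). That contrast called 0% of genes in edgeR, with 655 at an unadjusted p under 0.05 and 15 called by DESeq2.

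By mean level Tnfsf11 ran in the order EP4 (435 ± 256 CPM), Miso (391 ± 174), NI-PGE (328 ± 91.5), EP3+4 (294 ± 180), PGE (241 ± 122.7), EP3 (103 ± 27.1), NI-Veh (42.3 ± 29.1) and Veh (40.3 ± 15.7), as mean ± SD of 4 mice. Each neighbouring pair in that order overlapped in range. Tnfsf11 was also read against the summed markers of mesenchymal cell types that are known to make it. Cxcl12 leads the CAR sum and Col1a1 and Col1a2 lead the osteoblast-lineage sum, so these are not levels per cell type. Per 1000 CPM of CAR markers the group medians of Tnfsf11 were 30.7 with Miso, 32.5 with EP3+4, 31.9 with EP4, 10.6 with EP3, 34.1 with PGE and 4.78 with Veh, and 27.3 with NI-PGE against 2.26 with NI-Veh. Per 1000 CPM of osteoblast-lineage markers they were 54.6 with Miso, 43.7 with EP3+4, 60.1 with EP4, 9.38 with EP3 and 43.45 with PGE against 3.09 with Veh, and 41.4 with NI-PGE against 2.37 with NI-Veh. The osteoblast-lineage sum was itself lower after the agonists, with medians of 6764 CPM with Miso, 6178 with EP3+4, 5834 with EP4, 9527 with EP3 and 5808 with PGE against 13110 CPM with Veh, and 8391 with NI-PGE against 12440 CPM with NI-Veh. The part of that marker shift in the Tnfsf11 levels was not tested, and the division by it widens the gap between groups. On both scales the sulprostone median lay between vehicle and the other treatments. The authors' deposited table, their own fit of these libraries, gave Tnfsf11 the same 5 calls, with log2 fold changes of 3.49 for EP4, 3.3 for Miso, 2.91 for EP3+4, 2.65 for PGE and 3.02 for NI_PGE, and 1.37 for EP3 at an FDR of 0.6.

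Tnfrsf11b, the decoy receptor, did not follow its ligand. Sulprostone stroma had 3.97, 1.47, 1.10 and 4.17 CPM and irradiated vehicle stroma had 1.13, 1.46, 0.644 and 2.05 CPM. These groups overlapped, and the log2 fold change was 0.92 (SE 0.529, adjusted p = 1 in edgeR). Rivenprost stroma had 0.825, 0.202, 0.932 and 0.876 CPM, dmPGE2 stroma 1.325, 1.00, 0.177 and 0.645 CPM, and stroma given both agonists 0.987, 0.257, 1.01 and 0.841 CPM. Against those groups the sulprostone libraries were higher without overlap for rivenprost and the combination, and with overlap for dmPGE2. EP3 over PGE was 1.60 in log2 (adjusted p = 0.124 in edgeR), EP4 over EP3 was -1.74 (adjusted p = 0.254 in edgeR) and EP3+4 over EP3 was -1.63 (adjusted p = 0.125 in edgeR). DESeq2 called the first and the last of these, at adjusted p of 0.0419 and 0.0397. Over the 7 comparisons with a vehicle group Tnfrsf11b ranged between -0.82 and 0.92 in log2, and none was called. Misoprostol stroma had 1.26, 1.39, 0.745 and 0.988 CPM, within the span of the vehicle libraries.

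The ratio of Tnfsf11 to Tnfrsf11b counts in each library, with 0.5 added to both counts, joins ligand and decoy. In non-irradiated stroma its lowest, median and highest values were 142.5, 285 and 373 after dmPGE2, against 14.7, 24.9 and 37.5 after vehicle. After irradiation they were 226, 324 and 568 with dmPGE2, 233.5, 525.5 and 2728 with rivenprost, 257, 376 and 533.5 with both agonists and 262, 321 and 481.5 with misoprostol, against 21.4, 32.1 and 42.5 with vehicle. Each of these 5 groups lay above its vehicle group without overlap. In log2 the mean ratio was 3.42 higher in NI-PGE, 3.45 in PGE, 4.30 in EP4, 3.57 in EP3+4 and 3.44 in Miso, each at the smallest p that 70 relabellings of 4 and 4 mice can give, 0.0286 in a two-sided exact permutation test (0.0457 adjusted over 8 comparisons). All groups without overlap tie at this p, so the adjusted value depends on how many comparisons and ties were adjusted together. The EP4 value leans on rivenprost replicate 2, whose Tnfrsf11b rests on 12 counts, and was 3.57 without that library. Relabelling within sex gave p = 0.0556 by exact permutation, the smallest it allows, which cannot pass.

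The sulprostone ratio stayed near that of vehicle. Its lowest, median and highest values were 26.3, 35.7 and 112.9, overlapping the vehicle range of 21.4 to 42.5, and the difference in mean log2 ratio was 0.49 (exact permutation p = 0.486). Both numbers of that ratio were higher on average with sulprostone than with vehicle, 103 against 40.3 CPM for Tnfsf11 and 2.68 against 1.32 CPM for Tnfrsf11b. Against the other agonist treatments the sulprostone ratio did not overlap: EP3 over PGE was -2.96 in log2, EP4 over EP3 3.80, EP3+4 over EP3 3.08 and Miso over EP3 2.95. Each had an exact permutation p of 0.0286, the smallest possible, and an adjusted p of 0.0714 over 10 pairs, which missed the threshold. The called comparisons with vehicle had the same unadjusted p. The pairs were adjusted apart from them, and the different calls come from that split. The remaining 6 pairs differed by -0.85 to 0.85, with adjusted p of 0.667 or more by exact permutation, and the 3 of them with EP4 by -0.13 to 0.13 without rivenprost replicate 2. Irradiation did not separate the ratio either, at 0.37 for Veh over NI-Veh (exact permutation p = 0.343) and 0.41 for PGE over NI-PGE (exact permutation p = 0.371).

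**Figure D3:**
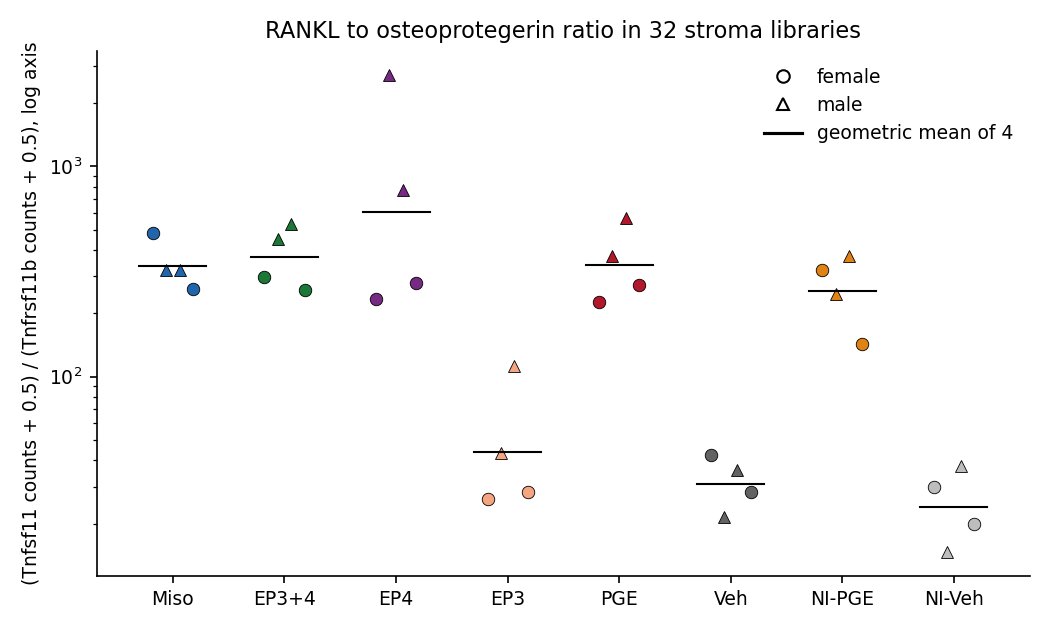
Ratio of Tnfsf11 to Tnfrsf11b counts (0.5 added to both) in 32 stroma libraries on a log axis, by group. Each point is 1 mouse (circles female, triangles male) and each bar is the geometric mean of 4. All libraries of Miso, EP3+4, EP4, PGE and NI-PGE lie at 142.5 or above, and those of EP3, Veh and NI-Veh at 112.9 or below.

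Tnfrsf11a, the signalling receptor RANK, was low throughout. Its CPM were 0.448, 1.018, 0.983 and 0.352 with dmPGE2 after irradiation, against 0.960, 1.27, 1.22 and 1.77 with vehicle, and the groups overlapped (log2 fold change -0.81, adjusted p = 0.355 in edgeR). The sham-irradiated dmPGE2 group held the highest library, replicate 4 at 2.76 CPM, beside 0.722 to 1.02 CPM in its other libraries. Over the 7 comparisons with a vehicle group the log2 fold changes of Tnfrsf11a ran between -0.81 and -0.01. PGE over NI-PGE had an unadjusted p of 0.0466 (log2 fold change -0.90, adjusted p = 0.699 in edgeR).

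Csf1, the ligand of CSF1R, was abundant and had no call with any agonist. It had 133.8, 372, 481 and 189 CPM with rivenprost, 231, 384, 244 and 205 CPM with misoprostol and 166, 346, 110.0 and 127.6 CPM with dmPGE2, against 122.5, 414, 209 and 135.5 CPM with irradiated vehicle. All groups overlapped. The log2 fold changes over the 7 comparisons with a vehicle group ran between -0.40 and 0.46, where those of Tnfsf11 reached 3.57. Between the log2 CPM of Tnfsf11 and Csf1 the correlation over the 32 libraries, which share groups and depth, was 0.253. Csf1 was higher in males, by 0.61 in log2 (unadjusted p = 0.00388, adjusted p = 0.0910 in edgeR), a difference called by DESeq2 (adjusted p = 0.0238) and, in edgeR, in 3 of 32 fits that left out 1 library. Tnfrsf11b was lower in males on the same footing, at -0.83 (adjusted p = 0.102 in edgeR and 0.0414 in DESeq2), beside 2.87% of all genes called between the sexes by edgeR.

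Csf1r, a receptor of monocytes and macrophages at chr18:61105572-61131139 on the plus strand, had lower mean levels after every agonist than after its irradiated vehicle, without a call. Misoprostol stroma had 31.65, 23.4, 22.8 and 78.4 CPM, against 58.3, 44.5, 71.9 and 106 CPM in irradiated vehicle stroma. The log2 fold change was -0.89 (unadjusted p = 0.0249, adjusted p = 0.343 in edgeR), and the ranges overlapped through misoprostol replicate 4. Rivenprost over vehicle was -0.74 (adjusted p = 0.525 in edgeR) and the combination over vehicle was -0.74 (adjusted p = 0.297 in edgeR). Summed monocyte and macrophage markers stood at 534 to 2099 CPM with misoprostol against 1094 to 2520 CPM with vehicle, with misoprostol replicate 4 highest in its group on both measures. Their part in the result was not tested.

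Genes that act around the axis were read from lists of the pathway. Unless marked otherwise, at most the 3 called genes with the greatest log2 fold change per list and comparison are named. A comparison not named for a gene can therefore still hold a change in it. Of 31 measured genes that induce RANKL or are receptors of such inducers, 7 rose and 1 fell with dmPGE2 in non-irradiated stroma, and 6 rose and 1 fell in each of the PGE, EP4, EP3+4 and Miso comparisons with irradiated vehicle. Sulprostone had 1 rise, and irradiation alone had 0 by edgeR with 8 at an unadjusted p under 0.05. Of all genes, 3.76% were called with NI-PGE, 1.98% with PGE, 1.13% with EP4, 3.09% with EP3+4, 0.916% with Miso, 0.105% with EP3 and 0.771% with irradiation alone, in either direction. The lists, here and below, were chosen with earlier results of these data known. Their counts beside these shares are therefore a description and do not test for an excess. Nr4a3, an orphan nuclear receptor induced by cAMP, rose by 5.33 in log2 with NI-PGE, 4.15 with PGE, 4.59 with EP4, 5.0 with EP3+4, 4.01 with Miso and 3.75 with EP3, its one call with sulprostone. Vdr, the vitamin D receptor that drives RANKL in osteoblasts, rose by 3.52 with EP4 and 3.12 with Miso. By level, every Vdr library of the other agonist treatments was also above its vehicle libraries. Vdr had 162 to 670 CPM with PGE, 234 to 1083 with EP3+4 and 152 to 362 with EP3, against 42.85 to 75.8 with Veh. It had 369 to 534 CPM with NI-PGE against 32.5 to 61.3 CPM with NI-Veh. The cytokine gene Il6, whose signal through gp130 raises RANKL, rose by 3.84 with Miso, 3.49 with EP4 and 3.46 with EP3+4, and Lif of the same cytokine family by 4.69 with NI-PGE, 3.43 with PGE and 3.48 with EP3+4. The genes that fell were Creb1 in the 4 irradiated comparisons, at -0.61 to -0.485, and Ptger2, an EP receptor gene, at -1.64 with NI-PGE, both named after their values were seen. List medians stayed between -0.11 and 0.27 over these 7 comparisons, beside -0.01 to 0.04 over all genes, so the median of the list stayed near that of all genes.

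Of 39 measured genes of RANK and CSF1R signal transduction, 2 or 3 rose and 0 to 2 fell in each agonist comparison other than that of sulprostone, where between 0.916% (Miso) and 3.76% (NI-PGE) of all genes were called. Fosl1 and Fosl2, AP-1 subunits, led: Fosl1 rose by 3.35 with NI-PGE, 1.89 with PGE, 2.05 with EP4 and 2.03 with Miso, and Fosl2 by 2.72, 1.70, 1.75 and 1.72 in those comparisons and by 1.67 with EP3+4. Sulprostone had 0 calls in this list by edgeR, with 3 at an unadjusted p under 0.05. With irradiation alone, which called 0.771% of all genes, 4 rose, led by Nfkbia at 1.88, Relb at 1.72 and Nfkb2 at 1.27, members and inhibitor of NF-kB, in a comparison where Tnfsf11 stood at -0.03. Of 17 measured negative regulators of osteoclast formation, 1 to 3 rose and 0 or 1 fell in each agonist comparison other than that of sulprostone, which had 0 calls by edgeR and 1 gene at an unadjusted p under 0.05. Socs3, an inhibitor of cytokine signalling, rose by 2.53 with Miso, 2.23 with EP4, 2.03 with EP3+4 and 1.73 with NI-PGE. Bcl6, a repressor, fell with NI-PGE (-1.79), PGE (-1.2) and EP3+4 (-1.49). With irradiation alone Tnfaip3, a brake on NF-kB, rose by 2.02 and Nfkbie, an NF-kB inhibitor, by 1.29. The medians over the 7 comparisons with a vehicle group ran between -0.08 and 0.08 for signal transduction and between -0.09 and 0.39 for negative regulators, beside -0.01 to 0.04 over all genes. Among 14 measured osteoclast effector genes 0 were called by edgeR in any of the 7 comparisons, and 0 to 3 had an unadjusted p under 0.05. Of the 14 genes in the list of CSF1-linked chemokines and adhesion, 1 was called, Icam1, which rose by 2.04 in log2 with irradiation alone. Tnfrsf10b, a TRAIL death receptor from the list of other ligands and receptors, rose by 3.95 with irradiation and 1.34 with NI-PGE and fell with PGE (-1.76) and EP3+4 (-1.51).

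Genes whose log2 CPM ran most like each member over the 32 stroma libraries were ranked by Pearson r among 12943 genes, as a description only, since the libraries fall into groups and share depth. For Tnfsf11 they included Vdr at 0.950, Adamts1 at 0.945, Adamts4 at 0.939 and Rnf125 at 0.933, among them a nuclear receptor and secreted proteases of the ADAMTS family. For Csf1 they were Thsd7a at 0.933, Gpr153 and Ackr4 at 0.922, Ccbe1 at 0.917 and Tns2 at 0.915, a set with no gene in common with that of Tnfsf11. Csf1r ran with Ctss at 0.976, Pld4 at 0.970, Mpeg1 at 0.967, Krt80 at 0.948 and Tgfbi at 0.937, of which Ctss and Mpeg1 are macrophage genes. The low members had looser partners, Cd200 at 0.873 and Dmp1, an osteocyte gene, at 0.832 for Tnfrsf11b, and Nxt2 and Slc43a2 at 0.807 and the macrophage gene Cd68 at 0.761 for Tnfrsf11a. Between members, r was -0.464 for Tnfsf11 with Csf1r, 0.544 for Tnfrsf11a with Csf1r and -0.11 for Tnfsf11 with Tnfrsf11b.

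**Figure D4:**
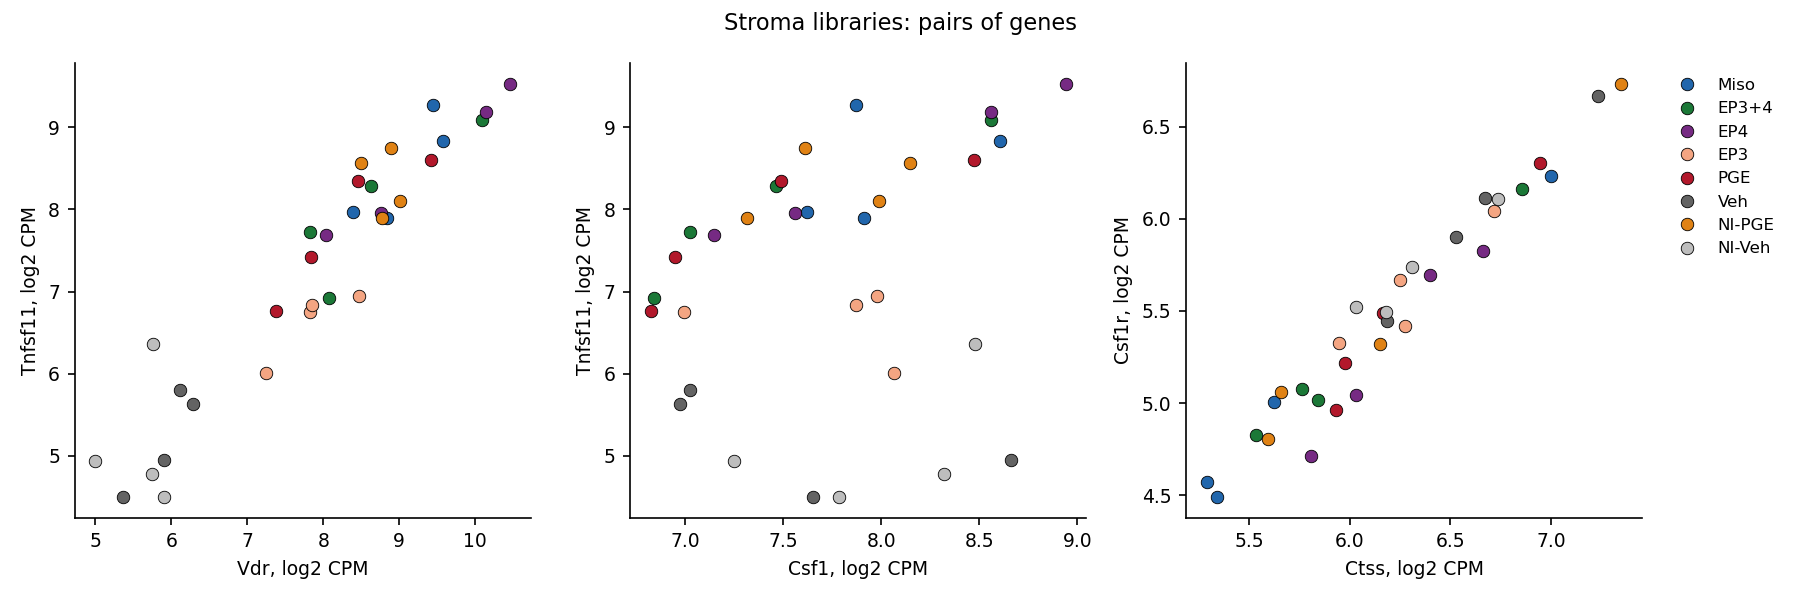
Levels of gene pairs in 32 stroma libraries as log2 CPM, with Tnfsf11 against Vdr, Tnfsf11 against Csf1 and Csf1r against Ctss. Each point is 1 mouse, coloured by group. Tnfsf11 runs with Vdr (r = 0.950) and Csf1r with Ctss (r = 0.976), while Tnfsf11 and Csf1 scatter (r = 0.253). In Tnfsf11 the libraries of the agonist groups other than sulprostone lie above all vehicle libraries. Sulprostone replicate 2, at 6.011, lies below NI-Veh replicate 4, at 6.358.

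By median, HSC libraries held lower levels of Tnfsf11, Csf1, Csf1r and Tnfrsf11a than stroma libraries and a higher level of Tnfrsf11b, with ranges that overlapped between the fractions for Csf1r, Tnfrsf11a and Tnfrsf11b. The fractions were prepared with different kits and are only set side by side. Median levels per kilobase over 20 libraries were 1.51 CPM for Csf1, 1.43 for Csf1r, 1.32 for Tnfrsf11b, 0.736 for Tnfsf11 and 0.0377 for Tnfrsf11a. Counts of 0 were seen for Tnfrsf11a in 8 of 20 libraries, Tnfsf11 in 5, Tnfrsf11b in 2 and Csf1r in 1, and a count of 0 still allows 3 counts, or 0.061 to 0.11 CPM at these depths, for counting error only. Tnfsf11 had 0, 0, 1.07 and 2.29 CPM with misoprostol, 3.58, 6.39, 2.21 and 0.0232 CPM with both agonists and 0, 4.46, 2.915 and 2.305 CPM with rivenprost, against 2.86, 4.46, 0 and 0.0287 CPM with vehicle. These levels scattered between 0 and several CPM inside each group. The log2 fold changes of Tnfsf11 ran between -1.25 and 0.89 with SE of 2.12 to 2.17, so a change of the size in stroma was not detectable at this spread.

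By edgeR, 0 of 25 member tests passed in HSC, with 0 at an unadjusted p under 0.05 and 0 called by DESeq2, over 4 comparisons with vehicle and 1 between the sexes. Of all genes 0.0147% were called with EP3, 0.494% with EP4, 0.545% with EP3+4, 0.251% with Miso and 0.0663% between males and females. Tnfrsf11b had 0, 1.58, 1.10 and 0 CPM with sulprostone and 6.46, 9.51, 2.96 and 0.545 CPM with vehicle (log2 fold change -2.88, adjusted p = 1 in edgeR), and leaving out any 1 library, the one that stood apart included, gave -3.72 to -2.37. Without EP3 replicate 1, Veh replicate 2 and Miso replicate 2 together it was -1.77 (adjusted p = 1 in edgeR). This is opposite in sign to the stroma value of 0.92, and neither was called. Csf1r with sulprostone was highest in the library that stood apart on stem cell markers: replicate 1 had 63.05 CPM, beside 0 to 27.7 CPM in the other 19 HSC libraries, and 3714 CPM of monocyte and macrophage markers beside at most 797 CPM. With it the log2 fold change against vehicle was 0.74 and without it -2.83, both at adjusted p = 1 in edgeR. Around the axis, Fos, Fosl2, Nr4a1, Cebpb and Socs3 rose in HSC with rivenprost, both agonists and misoprostol, with Fosl2 at 1.90, 1.95 and 1.94 in log2, while Icam1 fell by 1.86 with both agonists.

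**Figure D5:**
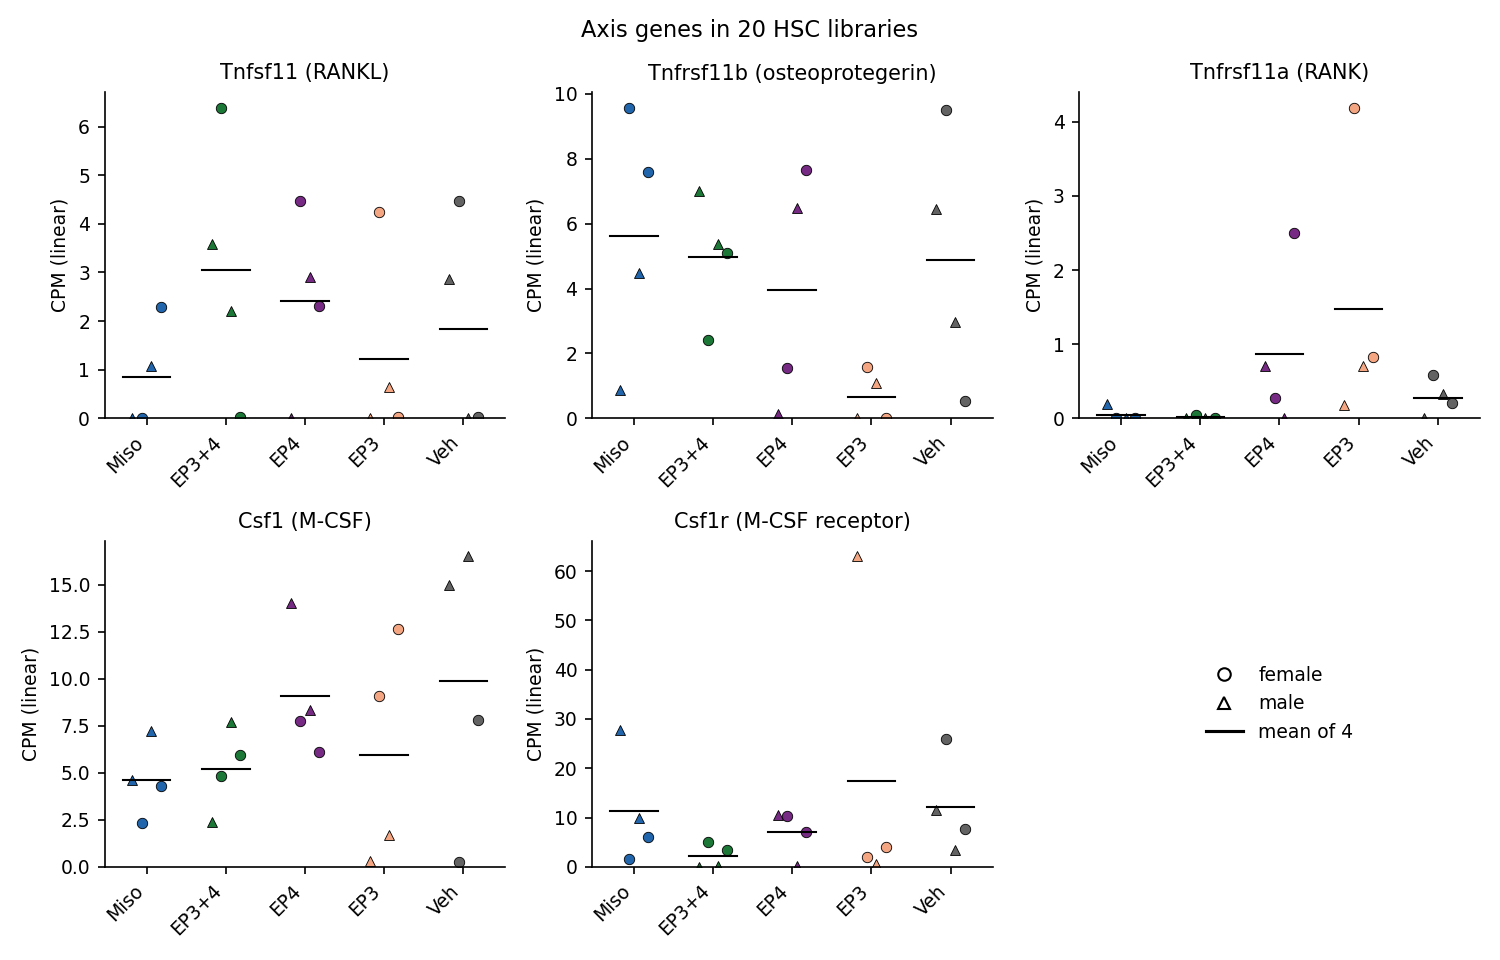
Levels of the 5 axis genes in 20 HSC libraries, in CPM, by treatment on the horizontal axis. Each point is 1 mouse (circles female, triangles male) and each bar is the mean of 4. Points spread between 0 and 6.39 CPM for Tnfsf11, and 1 sulprostone library has 63.05 CPM of Csf1r. Each agonist group overlaps the vehicle group for every gene. The sulprostone group and the group given both agonists do not overlap each other for Tnfrsf11b or Tnfrsf11a.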

How the data were processed

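RNA was measured in 20 HSC and 32 stroma libraries. Per the labels' protocols, SMART-Seq v4 with Nextera XT gave the HSC libraries and KAPA mRNA HyperPrep the stroma libraries. The submitters' processing notes list the genome build mm10, the aligner STAR 2.5, Subread 1.5.1 with its featureCounts, FastQC 0.11.5, and edgeR 3.36.0. The sources used here do not give the strand setting of the counting, which leaves overlapping and antisense genes inseparable. The authors deposited raw counts per gene, per the file headers, and these were the values tested. Their deposited log2 fold changes and FDR (adjusted p-value) columns are used only where the authors' deposited table is named. A further 52 per-sample columns were not used.

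CPM here is the raw count over the library's total. The test was the quasi-likelihood one of edgeR 4.0.16 in R 4.3.3 (TMM, robust), with 1 fit per fraction over all its groups and terms for group and sex. The sources used here give no design for the authors' own tests. Adjusted p are Benjamini-Hochberg over all genes of the fraction. A gene counts as rising, falling or called under 0.05. DESeq2 1.42.0 was an alternative, and further ones were other scalings, a 1 CPM filter in at least 4 libraries, no sex term, a term for the run of mouse numbers, the compared groups alone and leaving out libraries. A block for each set of consecutive mouse numbers was added after seeing the data. The ratio used raw counts with a two-sided exact permutation test of mean log2 values. Replicates are separate mice numbered in accession order. Intervals are at 95%.

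The members and gene lists were chosen with earlier results of these data known. Named genes are all members, up to 3 called genes with the greatest log2 fold change of each list and comparison, and for likeness the 5 genes with the highest r at a mean of at least 1 CPM (log2 CPM with a prior count of 2). One gene that the likeness rule names is not reported here.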

Additional observations from a re-analysis of the deposited data

Results flagged for a closer look

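Of 73 groups of 4 libraries examined, 10 held a library whose gap to its nearest neighbour took more than 0.829 of the group's range. Chance gives such a gap in about 1 in 20 groups where the 4 values are normally distributed. The values here were unlogged, held counts of 0 and shared genes between the levels and the ratio. That rate therefore does not carry over, and the 10 are a description. In HSC given sulprostone, Tnfsf11 was at 4.235 CPM in replicate 2 beside 0 to 0.634 CPM in the others, and Tnfrsf11a was at 4.192 CPM in the same library beside 0.183 to 0.833 CPM. Csf1r was at 63.05 CPM in replicate 1 of that group, beside 0.610 to 3.95 CPM. Tnfrsf11a was seen in 1 library only of 2 further HSC groups, at 0.04916 CPM in replicate 2 given both agonists and at 0.1962 CPM in replicate 1 given misoprostol, with 0 counts in the other 3 libraries of each. The value with both agonists rests on 2 counts, fewer than the 3 that a count of 0 still allows.

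In stroma, NI-Veh replicate 4 had 85.64 CPM of Tnfsf11 beside 23.3 to 31.2 CPM, and NI-PGE replicate 4 had 2.761 CPM of Tnfrsf11a beside 0.722 to 1.02 CPM. Rivenprost replicate 2 had 0.2023 CPM of Tnfrsf11b beside 0.825 to 0.932 CPM, the library with the highest ratio of ligand to decoy, 2728. Csf1r was at 73.79 CPM in replicate 4 given both agonists beside 28.01 to 33.5 CPM, and at 78.38 CPM in replicate 4 given misoprostol beside 22.8 to 31.7 CPM. Both of these libraries had the highest monocyte and macrophage marker sum of their group, 1726 CPM and 2099 CPM.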

How the results depend on the processing

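The 5 called Tnfsf11 changes in stroma kept their direction under every alternative run, and leaving out any 1 library gave 2.85 to 3.60 for NI-PGE, 2.30 to 2.91 for PGE, 3.18 to 3.87 for EP4, 2.38 to 3.19 for EP3+4 and 3.04 to 3.51 for Miso, all still called. With the compared groups alone, EP4 over Veh was 3.36 at an adjusted p of 0.092 in edgeR, so 0 members were called there, and Veh over NI-Veh turned to 0.01. DESeq2 called Tnfsf11 in EP4 over EP3 at 2.19, EP3+4 over EP3 at 1.54 and Miso over EP3 at 1.93, Tnfrsf11b in EP3 over PGE at 1.64 and EP3+4 over EP3 at -1.65, and for males over females Tnfrsf11b at -0.81 and Csf1 at 0.63. Its counts of members were therefore 1, 2 and 1 in EP4, EP3+4 and Miso over EP3, 1 in EP3 over PGE and 2 between the sexes. Leaving out 1 library moved Tnfsf11 to between -0.21 and 0.54 in Veh over NI-Veh, -0.32 and 0.68 in EP3+4 over PGE and -0.54 and 0.15 in Miso over EP4. It gave sex differences of 0.52 to 0.70 for Csf1 and -0.62 to -0.38 for Csf1r, with 0 to 2 members called. Csf1r in HSC, EP3 over Veh, ran from -2.83 to 1.41 in this way, and was -0.09 with the compared groups alone and -2.77 without 3 HSC libraries (EP3 replicate 1, Veh replicate 2 and Miso replicate 2). Leaving out 1 library gave differences in the log2 ratio of 3.18 to 3.70 in NI-PGE, 3.20 to 3.64 in PGE, 3.57 to 4.76 in EP4, 3.40 to 3.75 in EP3+4, 3.27 to 3.60 in Miso and 0.03 to 0.74 in EP3. Permuting the ratio within sex left its differences of 3.42, 3.45, 4.30, 3.57 and 3.44 in NI-PGE, PGE, EP4, EP3+4 and Miso, but the p there cannot go below 0.0556 (0.0889 adjusted) by exact permutation. With 5 added counts, Miso over PGE in the ratio was 0.09. The causes of these shifts were not tested. Tnfrsf11a does not pass the 1 CPM filter in HSC and has no value there. The mouse numbers in the titles run in consecutive sets with at most 1 mouse of each group and a single sex per set, 5 sets in stroma and 4 in HSC, but the labels do not say that a set shared a litter, batch or day. Residuals of paired mice correlated above 0.1 in every pair in 2 of 18 stroma and 0 of 4 HSC comparisons, so the numbers were not taken as pairing. The median correlation per comparison was positive throughout in stroma, from 0.023 for EP3+4 over Veh to 0.502 for PGE over Veh. It was -0.106 to -0.044 in HSC. The rule therefore does not show that mice of a stroma set vary independently. A replicate block for these sets in place of the sex term, chosen after seeing the data, kept the 5 Tnfsf11 calls in edgeR, at 3.21 for NI-PGE, 2.61 for PGE, 3.48 for EP4, 2.86 for EP3+4 and 3.24 for Miso. Under the block Tnfsf11 was called in EP4 over EP3 at 2.12, and Tnfrsf11b in EP3 over PGE at 1.69 and EP3+4 over EP3 at -1.60, so that 1 member was called in each of these. Under the block Tnfsf11 in Veh over NI-Veh was 0.49 and Csf1r in HSC, EP3 over Veh, was -0.36, neither called. Tnfrsf11a and Tnfrsf11b rest on few counts, which limits every statement on them and on the ratio.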
